A study of Homo sapiens with 8 samples.

Results

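Integrin and laminin genes were followed in UWB1.289, an established human ovarian cancer cell line that lacks functional BRCA1 (BRCA1-null), and in the derivative of that line transduced with BRCA1 (BRCA1+). The genes were taken by name, as every gene of the deposited table whose symbol is that of an integrin α chain, an integrin β chain or a laminin α, β or γ chain, and 38 of 25369 named genes matched. The 37 members described here are 26 integrin genes (18 α and 8 β chains) and 11 laminin genes, and 1 matching gene is not reported. Cells of each line received the vehicle DMSO (control) or entinostat at 0.5 uM, which blocks the histone deacetylases HDAC1 and HDAC3, and were collected after 24 h. Poly(A) RNA was sequenced from 2 libraries per group, 8 in all, so the groups were BRCA1+ control, BRCA1+ entinostat, BRCA1-null control and BRCA1-null entinostat. The BRCA1+ line is a single transduced derivative of the BRCA1-null line, so a difference between the lines covers whatever else separates them besides BRCA1. The sample labels do not say whether replicates came from separate cultures, and p-values therefore measure only the spread between these libraries, which may be technical. In bulk RNA, fewer cells that express a gene and less RNA per cell cannot be told apart.

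Integrins are receptors of the cell surface made of an α and a β chain, and the pair decides which matrix protein is bound. Chains α1, α2, α10 and α11 give collagen receptors with β1, whereas α3, α6 and α7 give laminin receptors, of which α6β4 anchors epithelial cells in hemidesmosomes. Chains α5, α8, αV and αIIb recognise the RGD motif of fibronectin, vitronectin and related ligands, and αL, αM, αX and αD pair with β2 on leukocytes. Laminins are secreted trimers of an α, a β and a γ chain that build the basement membrane. LAMA3 and LAMB3 encode chains typical of epithelial basement membranes, and laminin-511 is made from LAMA5, LAMB1 and LAMC1. In ovarian cancer these receptors and ligands serve the attachment of tumour cells to the peritoneal surface.

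Levels are given as CPM, read counts scaled by library size after TMM correction (a trimmed mean of log ratios), and levels of different genes are compared only after division by the gene length in the table. Differences are log2 fold changes ± standard error (SE) from edgeR's quasi-likelihood test over all 8 libraries, and a gene was called when its p-value, adjusted by Benjamini-Hochberg over the 17714 genes that passed the filter on low counts, was under 0.05. Of the 37 members, 36 passed this filter. LAMB4, with 2 to 13 counts per library, was not tested. Libraries held 31900158 to 53549893 counts, and a count of 0 allows a level of up to 0.0552 to 0.0946 CPM (3 counts). This limit covers counting error only, since reads without molecular identifiers are not independent molecules. Replicates correlated at r = 0.9915 to 0.9923 across genes. BRCA1, the gene that separates the lines by label, had 98.9 and 92.4 CPM in BRCA1+ control against 21.0 and 22.4 in BRCA1-null control (-2.14 ± 0.09, adjusted p = 5.46e-07). The 11 markers of ovarian serous carcinoma and epithelium summed to 14198 to 18559 CPM and none of them was at 0 in all libraries, although WT1 had only 1 to 20 counts.

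Summed markers of other cell types were low but moved with the groups. The 8 leukocyte markers that are not themselves members summed to 15.7 and 16.0 CPM in the BRCA1+ line under vehicle and 21.6 and 24.1 under entinostat, and to 26.6 and 27.5 CPM in the BRCA1-null line under vehicle and 30.3 and 38.4 under entinostat, with CD2 and MS4A1 at 0 in every library. Over the same groups, in that order, the 4 endothelial markers summed to 9.48 and 16.2, 27.3 and 38.3, 36.6 and 54.3, and 75.1 and 92.9 CPM. The 6 fibroblast markers summed to 12.9 and 17.8, 26.4 and 34.1, 29.8 and 44.3, and 40.9 and 59.6 CPM, with COL3A1, DCN and LUM at 0. The 4 platelet markers summed to 2.83 to 6.48 CPM, and PF4, PPBP and GP9 were at 0. Among these leukocyte markers CD68 had 8.58 to 30.9 CPM over the libraries, and none of the others exceeded 4.89 CPM. Among the endothelial markers CDH5 had 4.15 to 84.1 CPM, and none of the others exceeded 8.51 CPM. The highest leukocyte and endothelial sums thus came mainly from CD68 and CDH5. COL1A1 had 4.07 to 22.2 CPM and COL1A2 8.87 to 37.0 CPM among the fibroblast markers. The part of these levels in the differences given here was not tested.

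A pair of libraries stood apart at the genes ITGAM, ITGAX and ITGAD, which encode leukocyte α chains and lie next to each other on chromosome 16. ITGAM (chr16:31271288-31344213, hg19) had 67 counts in BRCA1-null control replicate 1 and 62 in BRCA1+ control replicate 2, and 0 to 4 counts in the other 6 libraries. ITGAD (chr16:31404633-31437826) had 63 and 60 counts in those same libraries and 0 in the other 6. Thus the replicates of both control groups disagreed at these genes. ITGAX (chr16:31366455-31394318) had 133 and 92 counts there, 99 in BRCA1-null control replicate 2 and 25 to 35 in the other 5. Nearby COX6A2, which encodes no integrin, had 6 counts in each of these 2 libraries and 0 or 1 elsewhere, while TRIM72 had 24 and 16 there, 17 in BRCA1-null control replicate 2 and 4 to 8 in the other 5. Over the 6 genes from TRIM72 to COX6A2 the counts summed to 297 and 240 in the 2 libraries. They summed to 119 in BRCA1-null control replicate 2 and to 32 to 44 in the other 5. These sums include ITGAM, ITGAX and ITGAD and so are not separate from the counts above. In the whole table, ITGAM and ITGAD were the 2 genes with at least 30 counts in both libraries and over 5 times the highest count of the other 6. The leukocyte marker sums above did not single out these libraries, and the cause was not tested. Member calls that were lost when both libraries were left out are given below with that value. Without both, each control group holds only 1 library.

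**Figure D1:**
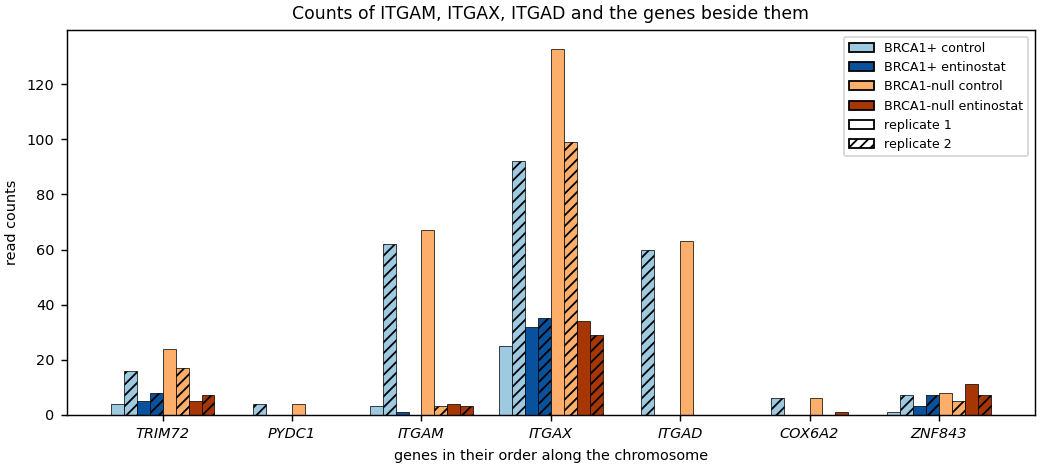
Read counts (linear axis) of ITGAM, ITGAX, ITGAD and the genes beside them in each of 8 libraries, in their order along the chromosome; colour gives the group and hatching the replicate. BRCA1-null control replicate 1 and BRCA1+ control replicate 2 carry 60 to 67 counts of ITGAM and ITGAD, against 0 to 4 in the other 6 libraries.

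Per kilobase, ITGB1, the β chain shared by most matrix receptors, was the most abundant of the members described in BRCA1+ control cells at 226.6 CPM per kb. ITGB5 (99.8), LAMB1 (75.4), LAMC1 (63.5) and ITGB3 (48.6) followed. In BRCA1-null control cells ITGB1 (201) was followed by LAMB1 (115), ITGA3 (113), ITGB4 (75.6) and LAMC1 (72.1). ITGB1 was also first of the members described in BRCA1+ entinostat (237) and in BRCA1-null entinostat (225). Neighbouring values such as LAMB1 and ITGA3, or ITGB4 and LAMC1, in BRCA1-null control lay closer than the replicates of LAMB1 and ITGB4 did. At the other end, the leukocyte chains ITGAL, ITGAM, ITGAX and ITGAD and the platelet chain ITGA2B stayed under 3 CPM in every library. So did ITGA4, ITGA8, ITGA9, ITGA10, ITGA11, ITGB7, LAMA2, LAMB4 and LAMC3.

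**Figure D2:**
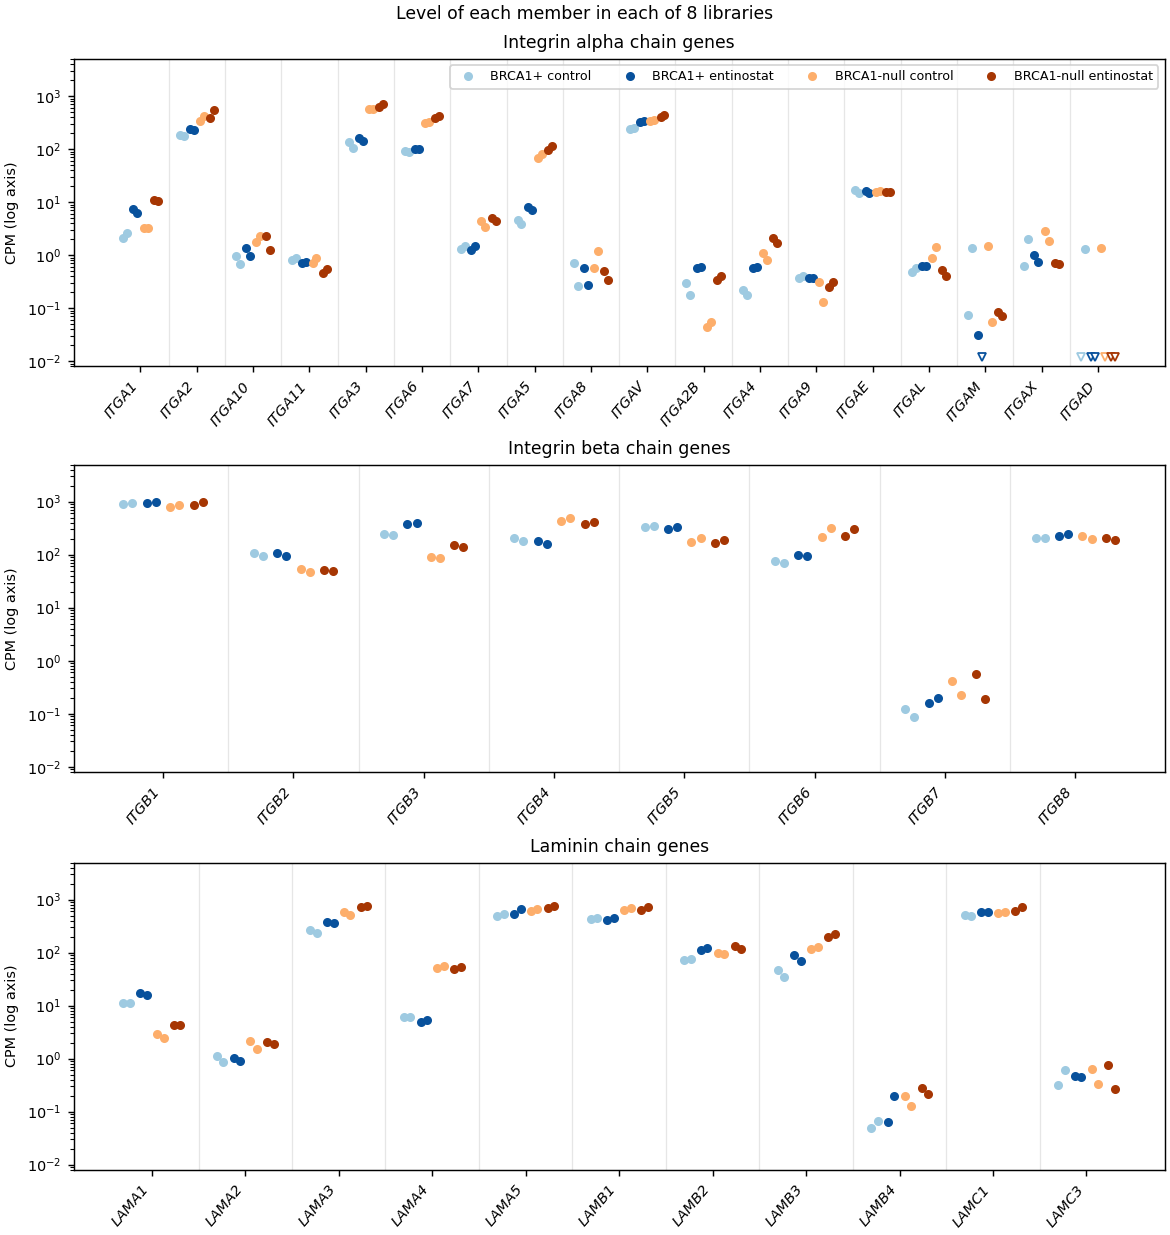
Level in CPM (log axis) of the 37 members in each of 8 libraries, coloured by group; open triangles at the foot mark libraries with a count of 0. ITGA5 and LAMA4 show the widest separation of the BRCA1-null libraries from the BRCA1+ libraries, and ITGB1 and ITGAE show almost none.

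The comparison of BRCA1-null with BRCA1+ cells asked how these genes differed between the lines. In DMSO, 23 of the 36 tested members were called, and the BRCA1-null line was higher for 18 of them and lower for 5. Over all tested genes 42.2% were called, 21.1% higher and 21.0% lower. The called share of the members was 63.9%, and the median of their log2 fold changes was 0.56 against 0.01 over all genes. Under entinostat, 19 members were called, 15 higher and 4 lower, where 39.4% of all tested genes were called (20.5% higher, 18.9% lower). Their median was 0.30, against 0.02 over all genes. In both comparisons 18 members were called and these had the same direction in both. How many of all tested genes were called in both was not counted. These comparisons have no libraries in common, but they are of the same lines and share 1 estimate of the spread. ITGA10, ITGA2B, ITGAL, LAMA5 and LAMB2 were called in DMSO and not in entinostat, and ITGA1 the other way round. For each call, the libraries of the lines did not overlap in the treatment in which it was made. With 2 libraries per group this adds no support to a call. LAMC1, ITGB1, ITGB7, ITGA9 and ITGA1 did not overlap in DMSO either and were not called there. The share of all tested genes without overlap was not counted. In DMSO, 7 of 10 tested laminin genes were higher and 1 lower, and 11 of 26 integrin genes were higher and 4 lower.

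**Figure D3:**
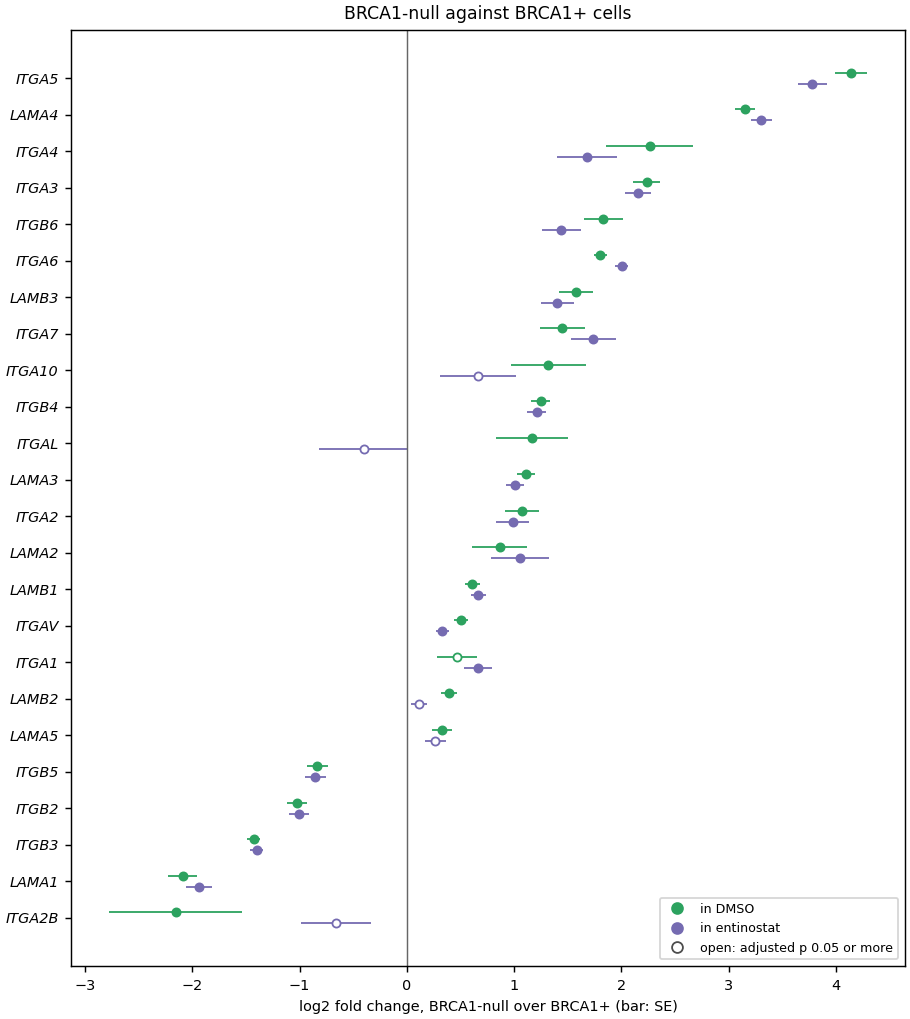
Log2 fold change of BRCA1-null over BRCA1+ cells (points) with its SE (bars) in DMSO and in entinostat for the 24 members called in either comparison; filled points were called and open points were not. ITGA5, LAMA4 and ITGA4 have the largest positive values in DMSO and ITGA2B and LAMA1 the most negative.

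The comparison of entinostat with DMSO asked how the genes responded to 24 h of the inhibitor. In BRCA1+ cells 9 of 36 tested members were called, all of them higher, where 14.1% of all tested genes were called (8.13% higher, 6.00% lower). In BRCA1-null cells 13 members were called, 11 higher and 2 lower, where 10.8% of all tested genes were called (7.57% higher, 3.19% lower). The members' median log2 fold change was 0.18 in BRCA1+ and 0.17 in BRCA1-null cells, against 0.00041 and 0.019 over all genes. With upper-quartile in place of TMM scaling, 72.5% rather than 57.6% of the genes called in BRCA1+ cells were higher, and 11 members were called, again all higher. The 9 members called in BRCA1+ cells were also called in BRCA1-null cells: ITGA1, ITGA2B, ITGA5, ITGAV, ITGB3, LAMA1, LAMA3, LAMB2 and LAMB3. How many of all tested genes were called with entinostat in both lines was not counted. ITGA4, ITGA6, ITGAL and ITGAX were called in BRCA1-null cells and not in BRCA1+ cells. The difference between the lines in their response was itself tested, as an interaction, and edgeR's quasi-likelihood test called 0 members and 0% of all genes. At an unadjusted p under 0.05 it held 3 members, ITGAL, ITGA6 and LAMB2, and 827 genes in all, and the smallest adjusted p was 0.967 among members and 0.660 among all genes. The edgeR likelihood ratio test called 18 genes and DESeq2 called 11, and neither called a member. Each entinostat comparison shares its control libraries with the comparison of the lines in DMSO.

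The entinostat calls in BRCA1-null cells were lost more often than the others when 1 library was left out. For ITGA4, ITGAL, ITGAV and ITGAX this included BRCA1+ libraries, which enter the fit but not that comparison. Leaving out 1 library ended 11 of the 13 calls there, 3 of the 9 in BRCA1+ cells, 5 of the 23 between the lines in DMSO and 2 of the 19 in entinostat. When both libraries with counts along ITGAM to ITGAD were left out, each control group held 1 library. The spread then came from the entinostat libraries alone. Calls kept, lost or gained in a comparison with control cells are thus no replicated check. The DMSO line difference of ITGAX was then 1.56, from 1 library against 1. Between the lines in entinostat, where each group kept 2 libraries, no call was lost and ITGB8 was called in addition. ITGA1 and ITGB3 were the members whose call in BRCA1-null cells was kept under every alternative tried other than the threshold on the fold change.

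**Figure D4:**
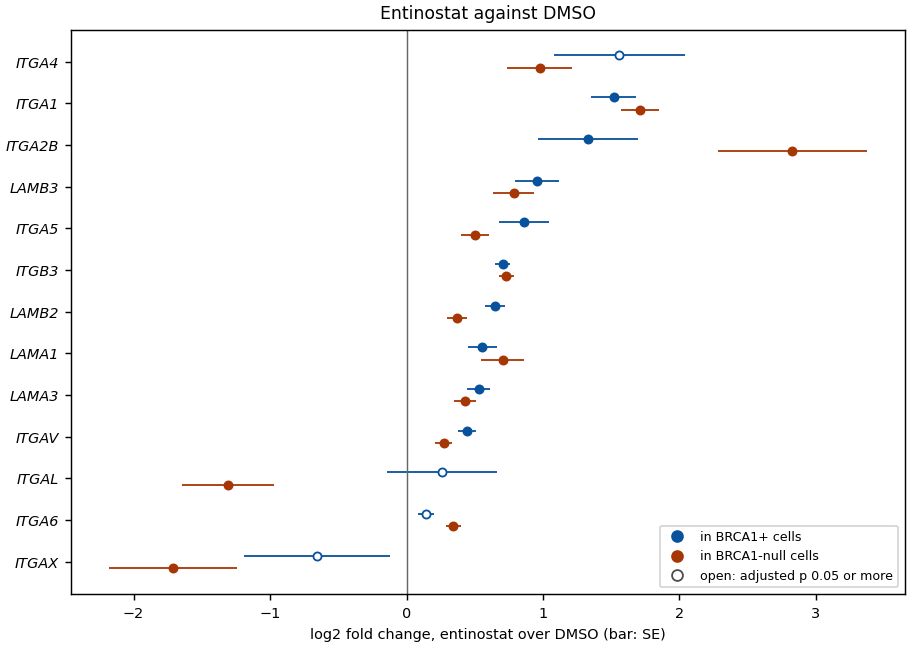
Log2 fold change of entinostat over DMSO (points) with its SE (bars) in BRCA1+ and BRCA1-null cells for the 13 members called in either line; filled points were called and open points were not. ITGA1 rose in both lines by more than 1.5, whereas the values of ITGAL lie on opposite sides of 0.

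Promoters were read from RefSeq (GRCh38.p14) as 250 bases before to 50 bases after a start listed for the gene. They were found for 26 of the 37 members, 33 windows in all. Which start was in use cannot be told from counts per gene. ITGA3, ITGA7, ITGA9, ITGAD, ITGAL, ITGAX, ITGB2, ITGB3, ITGB4, LAMA1 and LAMC3 had no entry in the table used. Searched on both strands, the AP-1 letters TGANTCA occurred in 7.71% of 35116 promoters and in 9.09% of the members' windows. These windows belong to 3 members, ITGA5, LAMA3 and LAMB3, and the other LAMB3 windows hold no AP-1 letters. The letters of the GC box, GGGCGG, occurred in 45.0% of all promoters and in 57.6% of the members' windows (14 members). The ETS letters CCGGAAG occurred in 10.3% and 9.09% (3 members, ITGA6, LAMA5 and ITGB5). The median number of CpG dinucleotides was 13 in the members' windows and 14 in all. Shown here are the windows of the 3 members with AP-1 letters, which were all higher in BRCA1-null cells and rose with entinostat in both lines, and that of ITGA1, which also rose in both lines and holds none of the motifs. Capitals mark matches of the AP-1 letters and of the GC box in either orientation, and no marked runs overlap. A match describes letters only and is not a binding site, and its relation to the changes in expression was not tested. The windows are chr12:54419217-54419516 (minus strand), chr18:23872770-23873069 (plus strand), chr1:209651325-209651624 (minus strand, the third of the LAMB3 starts listed) and chr5:52787666-52787965 (plus strand), each written 5′ to 3′ along the gene.
ITGA5: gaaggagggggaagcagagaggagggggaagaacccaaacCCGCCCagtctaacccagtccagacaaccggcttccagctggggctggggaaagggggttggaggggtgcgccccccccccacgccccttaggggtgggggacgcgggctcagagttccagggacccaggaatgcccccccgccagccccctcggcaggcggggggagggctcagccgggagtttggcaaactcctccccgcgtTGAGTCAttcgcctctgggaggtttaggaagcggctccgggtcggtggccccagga
LAMA3: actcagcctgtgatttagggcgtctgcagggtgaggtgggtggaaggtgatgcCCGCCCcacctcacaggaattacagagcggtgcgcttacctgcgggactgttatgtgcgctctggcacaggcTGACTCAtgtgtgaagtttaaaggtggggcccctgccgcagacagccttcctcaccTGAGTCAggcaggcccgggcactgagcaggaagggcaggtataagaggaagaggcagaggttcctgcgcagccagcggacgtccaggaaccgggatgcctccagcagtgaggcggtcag
LAMB3: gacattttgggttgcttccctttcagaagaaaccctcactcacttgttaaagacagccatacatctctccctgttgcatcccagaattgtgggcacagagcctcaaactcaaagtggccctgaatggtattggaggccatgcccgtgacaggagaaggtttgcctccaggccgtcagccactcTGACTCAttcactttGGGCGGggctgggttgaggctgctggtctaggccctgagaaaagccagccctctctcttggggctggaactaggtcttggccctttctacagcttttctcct
ITGA1: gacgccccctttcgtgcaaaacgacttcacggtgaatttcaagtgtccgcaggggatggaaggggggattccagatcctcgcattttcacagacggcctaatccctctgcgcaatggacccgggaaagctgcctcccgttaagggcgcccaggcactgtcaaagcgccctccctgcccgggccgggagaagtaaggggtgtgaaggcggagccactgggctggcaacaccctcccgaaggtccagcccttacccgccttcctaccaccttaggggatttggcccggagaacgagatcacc

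Among the collagen-binding α chains, ITGA1 had the clearest response to entinostat. ITGA1 (chr5:52084136-52249485, hg19) had replicate levels of 2.13 and 2.59 CPM (BRCA1+) and 3.23 and 3.33 CPM (BRCA1-null) under vehicle, and of 7.51 and 6.25 CPM (BRCA1+) and 10.8 and 10.7 CPM (BRCA1-null) under entinostat. Every entinostat library was above every control library. The rise of ITGA1 was 1.52 ± 0.17 (adjusted p = 0.00115) for BRCA1+ and 1.71 ± 0.14 (adjusted p = 0.000805) for BRCA1-null. Between the lines it was called in entinostat (0.66 ± 0.13, adjusted p = 0.00304) and not in DMSO (0.47 ± 0.18, adjusted p = 0.0681). Without BRCA1+ entinostat replicate 2 the line difference in entinostat was 0.52 (adjusted p = 0.0504). PELO, a ribosome rescue factor whose gene overlaps the listed span of ITGA1 on the same strand, had 977 to 1628 counts and changed by 0.10 ± 0.07 with entinostat in both lines (adjusted p = 0.367 and 0.394).

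ITGA2 (chr5:52285156-52390609), the collagen receptor chain of epithelia and platelets, had 187 and 175 CPM in the BRCA1+ line before and 244 and 229 CPM after entinostat, and 334 and 427 CPM before and 388 and 549 CPM after it in the BRCA1-null line. The BRCA1-null line was higher, by 1.07 ± 0.16 (adjusted p = 0.000604) with DMSO and 0.99 ± 0.16 (adjusted p = 0.000964) with entinostat. The inhibitor itself gave no call for ITGA2. ITGA10 (chr1:145524990-145543868), a chain known from cartilage, had levels of 0.951 and 0.697 CPM in vehicle-treated and 1.36 and 0.970 CPM in entinostat-treated BRCA1+ libraries, against 1.78 and 2.26 CPM and 2.28 and 1.25 CPM in the corresponding BRCA1-null libraries. Its level under vehicle was higher in the BRCA1-null line (1.32 ± 0.35, adjusted p = 0.0146), a call that was lost without BRCA1+ control replicate 2 (1.10, adjusted p = 0.106), without BRCA1-null control replicate 2 (1.12, adjusted p = 0.0837) or without both libraries named above (1.27, adjusted p = 0.0816). ITGA11, a chain of fibroblasts, had 0.469 to 0.901 CPM and was called in no comparison.

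The laminin-binding α chains ITGA3, ITGA6 and ITGA7 were all higher in BRCA1-null cells. ITGA3 (chr17:48133340-48167849), which pairs with β1 as a receptor for laminins of epithelia, had replicate levels of 138 and 103 CPM (BRCA1+) and 561 and 572 CPM (BRCA1-null) under vehicle, and of 163 and 143 CPM (BRCA1+) and 637 and 724 CPM (BRCA1-null) under entinostat. The lines did not overlap, and the BRCA1-null line was higher by 2.23 ± 0.13 in vehicle, adjusted p = 3.08e-06, and 2.15 ± 0.12 in inhibitor, adjusted p = 4.27e-06. ITGA6 (chr2:173292314-173371181), the partner of β4 in hemidesmosomes, had 91.1 and 89.4 CPM in the BRCA1+ line before and 98.9 and 100.1 CPM after entinostat, and 309.8 and 320.3 CPM before and 383 and 415 CPM after it in the BRCA1-null line. The line difference of ITGA6 was 1.80 ± 0.06 under vehicle (adjusted p = 1.85e-07) and 2.00 ± 0.06 under entinostat (adjusted p = 1.08e-07). With entinostat ITGA6 rose by 0.34 ± 0.06 in BRCA1-null cells (adjusted p = 0.00764), and by 0.29 without BRCA1-null control replicate 1 (adjusted p = 0.0512) or without both libraries that stood apart (adjusted p = 0.0650). In BRCA1+ cells its value was 0.14 ± 0.06 (adjusted p = 0.142).

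ITGA7 (chr12:56078354-56106089), the laminin receptor chain of muscle, had levels of 1.33 and 1.503 CPM in vehicle-treated and 1.26 and 1.51 CPM in entinostat-treated BRCA1+ libraries, against 4.37 and 3.46 CPM and 4.95 and 4.43 CPM in the corresponding BRCA1-null libraries. ITGA7 exceeded the BRCA1+ level by 1.45 ± 0.21 (adjusted p = 0.000596) with DMSO and 1.74 ± 0.21 (adjusted p = 0.000225) with entinostat. METTL7B, which overlaps the listed span of ITGA7 on the other strand with 15 to 350 counts, was higher in the same comparisons by 3.12 ± 0.27 and 3.39 ± 0.23. How the counting treated strand was not stated, so reads from the part that these spans share cannot be told apart. The size of that part was not examined.

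ITGA5, the fibronectin receptor chain, had the largest line difference of all members, and its promoter is among the windows printed above. ITGA5 (chr12:54789045-54813050) had replicate levels of 4.58 and 3.86 CPM (BRCA1+) and 68.6 and 79.5 CPM (BRCA1-null) under vehicle, and of 8.20 and 7.20 CPM (BRCA1+) and 95.4 and 115 CPM (BRCA1-null) under entinostat. The lowest BRCA1-null library was above the highest BRCA1+ library in both treatments, and the log2 difference was 4.14 ± 0.15 in vehicle, adjusted p = 2.49e-07, and 3.78 ± 0.14 in inhibitor, adjusted p = 3.68e-07. ITGA5 also rose with the inhibitor, by 0.86 ± 0.18 in the BRCA1+ line (adjusted p = 0.0168), against 0.50 ± 0.11 in the BRCA1-null line (adjusted p = 0.0199). The first of these calls was lost without BRCA1+ entinostat replicate 1, BRCA1+ control replicate 2 or BRCA1+ entinostat replicate 2 (0.74 to 0.96, adjusted p = 0.0680 to 0.109). The second was lost without BRCA1-null control replicate 1 or BRCA1-null entinostat replicate 2 (0.38 and 0.36, adjusted p = 0.103 and 0.0956). Without both libraries that stood apart the values were 0.75 (adjusted p = 0.0688) and 0.38 (adjusted p = 0.101). LOC102724050, listed on the other strand across the span of ITGA5, had 4 to 138 counts and was also higher in BRCA1-null cells in DMSO (3.80 ± 0.46).

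ITGAV, the αV chain of the vitronectin receptors and of receptors that activate TGF-β, had 239 to 253 CPM in BRCA1+ control and 342 to 355 in BRCA1-null control. The BRCA1-null line exceeded BRCA1+ by 0.51 ± 0.06 (DMSO) and 0.33 ± 0.06 (entinostat). ITGAV rose with the inhibitor too, by 0.44 ± 0.06 (adjusted p = 0.00362) for BRCA1+ and 0.27 ± 0.06 (adjusted p = 0.0296) for BRCA1-null. The latter call was lost without any of 5 single libraries (both BRCA1+ entinostat replicates, both BRCA1-null control replicates and BRCA1-null entinostat replicate 2), with values of 0.20 to 0.30 and adjusted p of 0.0529 to 0.148, and without both libraries that stood apart (0.22, adjusted p = 0.157). ITGA8, another RGD-binding chain, had 0.261 to 1.20 CPM and was called in no comparison.

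ITGA2B (chr17:42449550-42466873), the αIIb chain of the platelet fibrinogen receptor, was near the limit of detection. Its counts were 12 and 8 in BRCA1+ libraries under vehicle and 18 and 28 under entinostat, and 2 and 3 in BRCA1-null libraries under vehicle and 16 and 17 under entinostat. The ratio of BRCA1+ control to BRCA1-null control was 4.65 (95% counting interval 1.69 to 15.9), and the ratio of BRCA1-null entinostat to BRCA1-null control was 7.43 (2.88 to 24.4). The fitted line difference in DMSO was -2.16 ± 0.62 (adjusted p = 0.0189), and the fitted changes with entinostat were 1.33 ± 0.37 in the BRCA1+ line (adjusted p = 0.0405), against 2.83 ± 0.55 in the BRCA1-null line (adjusted p = 0.0136). The line call was lost without BRCA1+ control replicate 1 or either BRCA1-null control replicate (adjusted p = 0.0802 to 0.120). The entinostat call was lost in BRCA1+ cells without any 1 of the 8 libraries (adjusted p = 0.0528 to 0.246) and in BRCA1-null cells without any 1 of their 4 libraries (adjusted p = 0.0550 to 0.0850). All 3 ITGA2B calls were lost without both libraries that stood apart (adjusted p = 0.0859 between the lines, 0.30004 for entinostat in BRCA1+ and 0.0729 in BRCA1-null cells).

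Of the leukocyte chains and the remaining α chains, most were low. ITGA4 (chr2:182321619-182402468), a receptor chain for fibronectin and VCAM1, had 0.225 and 0.174 CPM in the BRCA1+ line before and 0.568 and 0.604 CPM after entinostat, and 1.12 and 0.828 CPM before and 2.09 and 1.68 CPM after it in the BRCA1-null line. Its excess in the BRCA1-null line was 2.26 ± 0.41 under vehicle (adjusted p = 0.002) and 1.68 ± 0.28 under entinostat (adjusted p = 0.0014), and the DMSO value was 1.89 (adjusted p = 0.0509) without both libraries that stood apart. With entinostat it rose by 0.97 ± 0.24 in BRCA1-null cells (adjusted p = 0.033), and the value in BRCA1+ cells was 1.56 ± 0.48 (adjusted p = 0.0612). The call in BRCA1-null cells was lost without any 1 library except BRCA1-null control replicate 1 (0.75 to 1.12, adjusted p = 0.0512 to 0.182). Without both libraries that stood apart it was 1.17 (adjusted p = 0.0654).

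ITGAL (chr16:30483983-30534506), the αL chain of LFA-1 on leukocytes, had levels of 0.475 and 0.566 CPM in vehicle-treated and 0.631 and 0.625 CPM in entinostat-treated BRCA1+ libraries, against 0.879 and 1.44 CPM and 0.533 and 0.407 CPM in the corresponding BRCA1-null libraries. It was higher in BRCA1-null than in BRCA1+ cells in DMSO (1.17 ± 0.33, adjusted p = 0.0198), and it fell with entinostat in BRCA1-null cells (-1.31 ± 0.34, adjusted p = 0.0403). Its value in BRCA1+ cells was 0.26 ± 0.41 (adjusted p = 0.737). The line call was lost without either BRCA1+ control replicate or without BRCA1-null control replicate 2, and without the latter the difference was 0.74 (adjusted p = 0.147). The entinostat call was lost without any 1 library except BRCA1-null control replicate 1 (-1.53 to -0.89, adjusted p = 0.0591 to 0.216).

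ITGAX, the αX chain of leukocyte β2 receptors, had replicate levels of 0.625 and 2.00 CPM (BRCA1+) and 2.92 and 1.82 CPM (BRCA1-null) under vehicle, and of 1.01 and 0.754 CPM (BRCA1+) and 0.725 and 0.694 CPM (BRCA1-null) under entinostat. Its fall with entinostat in BRCA1-null cells (-1.71 ± 0.47, adjusted p = 0.0492) was largest against the control library that also carried the ITGAM and ITGAD counts, whose part in it was not tested beyond leaving it out. Without BRCA1-null control replicate 1 the value was -1.38 (adjusted p = 0.152), and it was also not called without BRCA1-null control replicate 2 (-2.04, adjusted p = 0.0669), either BRCA1-null entinostat replicate or either BRCA1+ entinostat replicate (adjusted p up to 0.178). Without both libraries that stood apart the value was also -1.38, with 1 BRCA1-null control library left. ITGAM and ITGAD were called in no comparison, and their fitted changes rest on the same 2 libraries. ITGAE, the partner of β7 on intraepithelial lymphocytes, had 14.8 to 17.0 CPM and ITGA9, a chain that binds tenascin-C, had 0.129 to 0.414 CPM, and neither was called. GSG2, a single-exon gene, lies inside the listed span of ITGAE on the other strand with up to 1198 counts. The sum of the leukocyte markers was higher in BRCA1-null than in BRCA1+ libraries and was highest in BRCA1-null entinostat. ITGAL and ITGAX were lower in BRCA1-null entinostat than in BRCA1-null control. The part of the markers in these values was not tested.

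Among the β chains, ITGB4 and ITGB6 were higher and ITGB2, ITGB3 and ITGB5 lower in BRCA1-null cells. ITGB4 (chr17:73717516-73753899), the hemidesmosomal partner of α6, had 205 and 182 CPM in the BRCA1+ line before and 179 and 160.4 CPM after entinostat, and 434 and 485 CPM before and 371 and 414 CPM after it in the BRCA1-null line. The line difference of ITGB4 was 1.25 ± 0.09 (adjusted p = 1.10e-05) with DMSO and 1.21 ± 0.09 (adjusted p = 1.43e-05) with entinostat. ITGB6 (chr2:160956177-161056824), the epithelial partner of αV, had levels of 77.1 and 71.1 CPM in vehicle-treated and 100.2 and 94.8 CPM in entinostat-treated BRCA1+ libraries, against 214 and 313 CPM and 225 and 305 CPM in the corresponding BRCA1-null libraries. The line difference of ITGB6 was 1.83 ± 0.18 in vehicle, adjusted p = 6.82e-05, and 1.44 ± 0.18 in inhibitor, adjusted p = 0.000263. Neither ITGB4 nor ITGB6 was called with entinostat.

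ITGB3 (chr17:45331208-45390077), the partner of αV and αIIb, had replicate levels of 242 and 234 CPM (BRCA1+) and 89.8 and 87.1 CPM (BRCA1-null) under vehicle, and of 382 and 394 CPM (BRCA1+) and 153 and 141 CPM (BRCA1-null) under entinostat. The line difference and the response to the inhibitor had opposite signs. Its level was lower in the BRCA1-null line, with -1.43 ± 0.06 under vehicle (adjusted p = 5.46e-07) and -1.40 ± 0.06 under entinostat (adjusted p = 7.55e-07). ITGB3 rose with the inhibitor by 0.71 ± 0.06 (adjusted p = 0.000331) for BRCA1+ and 0.73 ± 0.06 (adjusted p = 0.000805) for BRCA1-null, and in BRCA1-null entinostat it stayed under the level of BRCA1+ control. LOC102724508, listed on the other strand across ITGB3, had 63 to 272 counts.

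ITGB2 (chr21:46305868-46348753), the shared β chain of leukocyte integrins, had 108 and 93.7 CPM in the BRCA1+ line before and 106 and 96.1 CPM after entinostat, and 52.6 and 46.8 CPM before and 52.0 and 48.5 CPM after it in the BRCA1-null line. The BRCA1-null line was lower for ITGB2, with -1.02 ± 0.09 (adjusted p = 3.91e-05) with DMSO and -1.01 ± 0.09 (adjusted p = 4.82e-05) with entinostat. The antisense gene ITGB2-AS1, with 315 to 812 counts, was lower by 1.15 ± 0.22 on the log2 scale in DMSO. Reads from the part that the pair shares cannot be told apart. ITGB5, a partner of αV, had 306 to 344 CPM in BRCA1+ libraries and 164 to 206 in BRCA1-null libraries, a difference of -0.83 ± 0.10 in DMSO and -0.85 ± 0.10 in entinostat. ITGB1 had 790 to 995 CPM over all libraries and was not called between the lines in DMSO (-0.17 ± 0.07, adjusted p = 0.0686). ITGB8, a further partner of αV, had 189 to 242 CPM and ITGB7, the partner of α4 and αE, had 0.0872 to 0.555 CPM, and neither was called in any comparison.

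The epithelial laminin chains LAMB3 and LAMA3 were higher in BRCA1-null cells in both treatments. LAMB3 (chr1:209788218-209825820), the β3 chain, had levels of 48.0 and 34.1 CPM in vehicle-treated and 90.4 and 69.1 CPM in entinostat-treated BRCA1+ libraries, against 119 and 125 CPM and 199 and 221 CPM in the corresponding BRCA1-null libraries. For LAMB3 the lines differed by 1.58 ± 0.16 in vehicle, adjusted p = 7.46e-05, and 1.40 ± 0.15 in inhibitor, adjusted p = 0.000125. LAMA3 (chr18:21269562-21535029), the α3 chain, had replicate levels of 270.4 and 233 CPM (BRCA1+) and 578 and 508 CPM (BRCA1-null) under vehicle, and of 372 and 354 CPM (BRCA1+) and 714 and 748 CPM (BRCA1-null) under entinostat. For LAMA3 they differed by 1.11 ± 0.08 under vehicle (adjusted p = 1.49e-05) and 1.01 ± 0.08 under entinostat (adjusted p = 2.46e-05).

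With entinostat, LAMA3 and LAMB3 rose in both lines. The rise of LAMB3 was 0.96 ± 0.16 in the BRCA1+ line (adjusted p = 0.00655), against 0.78 ± 0.15 in the BRCA1-null line (adjusted p = 0.0145). That of LAMA3 was 0.53 ± 0.08 (adjusted p = 0.00523) for BRCA1+ and 0.43 ± 0.08 (adjusted p = 0.0143) for BRCA1-null. In BRCA1-null cells the LAMB3 call was lost without either control replicate or entinostat replicate 2 of that line (0.70 to 0.82, adjusted p = 0.0630 to 0.0673). The LAMA3 call was lost there without control replicate 2 or either entinostat replicate (0.34 to 0.46, adjusted p = 0.0527 to 0.0898).

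Of the genes of laminin-511, LAMB1 was higher in BRCA1-null cells in both treatments (0.61 ± 0.07 and 0.66 ± 0.07), with 421 to 445 CPM in BRCA1+ and 639 to 724 in BRCA1-null libraries. LAMA5 was called in DMSO, where it was higher (0.33 ± 0.10, adjusted p = 0.0205), and that call was lost without BRCA1+ control replicate 1 (0.25, adjusted p = 0.135) or BRCA1-null control replicate 2 (0.27, adjusted p = 0.117). It was not called in entinostat. Without both libraries that stood apart the value was 0.50. LAMC1, the γ1 chain of most laminins, had 484 to 715 CPM and was called in no comparison. LAMB2, the β2 chain, was higher in BRCA1-null cells in DMSO (0.39 ± 0.08) and not called in entinostat (0.12 ± 0.07, adjusted p = 0.258). LAMB2 rose with the inhibitor, by 0.65 ± 0.08 in the BRCA1+ line (adjusted p = 0.00146), against 0.37 ± 0.07 in the BRCA1-null line (adjusted p = 0.0172). The latter call was lost without either BRCA1-null control replicate or BRCA1-null entinostat replicate 1 (0.27 to 0.37, adjusted p = 0.0588 to 0.103), and without both libraries that stood apart (0.37, adjusted p = 0.0689).

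The remaining laminin α chains moved apart. LAMA4 (chr6:112429134-112575917), the α4 chain of mesenchymal and vascular basement membranes, had 6.00 and 6.10 CPM in the BRCA1+ line before and 5.01 and 5.28 CPM after entinostat, and 52.1 and 55.5 CPM before and 48.5 and 53.7 CPM after it in the BRCA1-null line. The BRCA1-null line exceeded the BRCA1+ line by 3.15 ± 0.09 (adjusted p = 1.28e-07) with DMSO and 3.30 ± 0.10 (adjusted p = 1.31e-07) with entinostat. With the inhibitor LAMA4 was not called. The endothelial and fibroblast marker sums were also higher in BRCA1-null control than in BRCA1+ control. In BRCA1-null entinostat the endothelial sums were above those of BRCA1-null control, and the fibroblast sums overlapped with them. The part of these markers in the LAMA4 values was not tested. LAMA1 (chr18:6941743-7117813), the α1 chain of the early embryo, had levels of 11.4 and 11.1 CPM in vehicle-treated and 17.4 and 15.8 CPM in entinostat-treated BRCA1+ libraries, against 2.90 and 2.41 CPM and 4.31 and 4.29 CPM in the corresponding BRCA1-null libraries. LAMA1 was lower in the BRCA1-null line, with -2.09 ± 0.13 in vehicle, adjusted p = 6.55e-06, and -1.94 ± 0.12 in inhibitor, adjusted p = 6.40e-06. It rose with the inhibitor by 0.56 ± 0.11 (adjusted p = 0.01) for BRCA1+ and 0.70 ± 0.16 (adjusted p = 0.0255) for BRCA1-null. The rise in BRCA1+ cells was not called without BRCA1+ entinostat replicate 1 or BRCA1+ control replicate 2 (0.49 and 0.54, adjusted p = 0.0709 and 0.0673). In BRCA1-null cells it was not called without control replicate 2 or either entinostat replicate (0.57 to 0.71, adjusted p = 0.0791 to 0.147). Without both libraries that stood apart, the LAMA1 values for BRCA1+ and BRCA1-null cells were 0.55 and 0.81 (adjusted p = 0.0637 and 0.0557).

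LAMA2 (chr6:129204286-129837710), the α2 chain of muscle, had replicate levels of 1.13 and 0.872 CPM (BRCA1+) and 2.11 and 1.55 CPM (BRCA1-null) under vehicle, and of 1.01 and 0.905 CPM (BRCA1+) and 2.05 and 1.89 CPM (BRCA1-null) under entinostat. LAMA2 was higher in the BRCA1-null line by 0.86 ± 0.26 under vehicle (adjusted p = 0.0239) and 1.06 ± 0.27 under entinostat (adjusted p = 0.0121). The DMSO call was lost without BRCA1-null control replicate 1 (0.66, adjusted p = 0.101) or BRCA1+ control replicate 2 (0.68, adjusted p = 0.162), and without both the value was 0.48 (adjusted p = 0.351). In entinostat it was lost without BRCA1-null entinostat replicate 1 or BRCA1+ entinostat replicate 2 (0.99 and 0.96, adjusted p = 0.0570 and 0.106). LAMC3, a γ chain, had 0.263 to 0.768 CPM and was called in no comparison.

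The makeup of the chain families differed between the lines. Shares are of the summed CPM per kb of the family (mean ± SD of 2 libraries), given as a description without a test. LAMA3 made up 33.6% ± 4.0 of the laminin α chains in BRCA1+ control and 44.4% ± 3.6 in BRCA1-null control, and LAMB3 9.37% ± 2.1 and 17.1% ± 0.32 of the laminin β chains. Thus both epithelial chains had the larger share in BRCA1-null control, and LAMB3 reached 25.1% ± 0.47 in BRCA1-null entinostat. Among α integrins, ITGAV led in BRCA1+ control with 32.9% ± 2.7 and ITGA3 in BRCA1-null control with 39.1% ± 1.3. ITGA5 went from 0.955% ± 0.073 to 6.03% ± 0.34 of the α chains. Among β chains the share of ITGB1 was 47.3% ± 1.6 and 45.1% ± 1.0, while ITGB4 held 6.65% ± 0.63 and 16.9% ± 0.0010, ITGB6 3.31% ± 0.23 and 12.5% ± 2.4, and ITGB3 10.2% ± 0.36 and 4.06% ± 0.41.

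**Figure D5:**
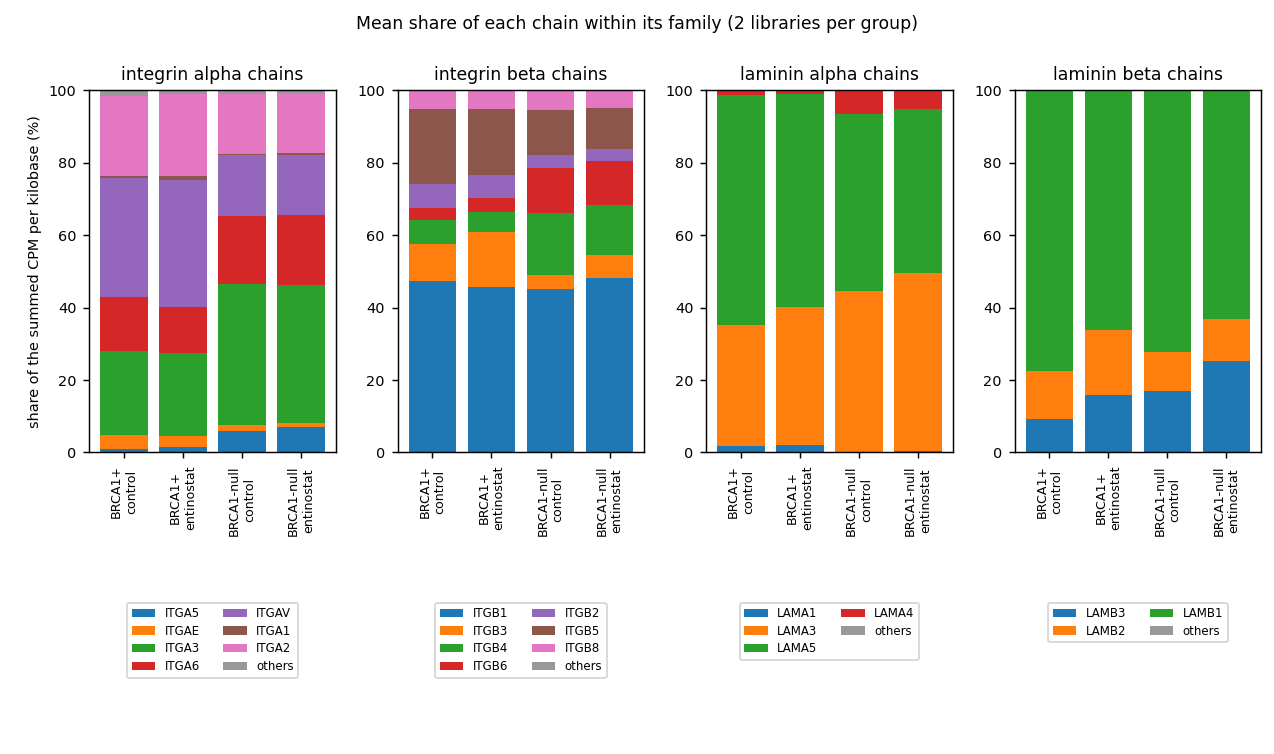
Stacked mean shares (%) of the chains in the summed CPM per kilobase of their family, for the 4 groups; chains under 1% in every group are joined as others. LAMA3 takes 44.4% of the laminin α chains in BRCA1-null control against 33.6% in BRCA1+ control, and ITGA3 replaces ITGAV as the largest α chain share.

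Ratios between chains within a library do not depend on library size. The ratio of LAMB3 to LAMB1 per kb was 0.121 ± 0.030 in BRCA1+ control and 0.236 ± 0.0082 in BRCA1-null control, that of LAMA3 to LAMA5 was 0.532 ± 0.098 and 0.910 ± 0.14, and that of ITGB6 to ITGB3, alternative partners of αV, was 0.325 ± 0.011 and 3.12 ± 0.90. In sum, the integrin α chains had 104 ± 4.6 CPM per kb in BRCA1+ control and 289 ± 13.7 in BRCA1-null control, whereas the β chains had 479 ± 6.1 and 447 ± 35.0.

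Genes beside a member were examined to see whether the member moved with its region. Over the 20 tested genes on each side, the median difference in DMSO (BRCA1-null over BRCA1+, log2) was -0.02 at ITGA5 and -0.16 at LAMA4. At ITGA3 it was 0.52, with 22 of 40 neighbours higher and 2 lower, so ITGA3 lies among genes that were higher in BRCA1-null cells. Regions beside ITGB8 (0.65) and ITGA11 (0.57) were also higher, each with 27 of 40 neighbours higher and 1 lower, although neither member was called. The spans of 14 members overlap another listed gene. Besides those named above, these include CERKL at ITGA4, LOC101927811 at ITGB8, microRNA genes inside LAMB3 and LAMA5, and the very wide listed spans of SRGAP2D and FAM72C across ITGA10 and LAMC1.

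Other genes of the pathway were taken from 3 lists. Of 29 tested genes of the adhesome, the cytoplasmic proteins that link integrins to actin, 9 were higher and 10 lower in BRCA1-null cells in DMSO (65.5%, where 42.2% of all tested genes were called). Their median was -0.11. PARVG (3.93 ± 0.34), an adaptor of the parvin family, and TNS1 (2.46 ± 0.28), a tensin, were higher and LIMS2 (-3.17 ± 0.36), a partner of integrin-linked kinase, was lower. With entinostat 3 adhesome genes were higher and 2 lower in BRCA1+ cells, a share of 17.2% near the 14.1% of all tested genes. In BRCA1-null cells 4 were higher and 2 lower (20.7%, where 10.8% of all tested genes were called). LIMS2 rose by 0.94 ± 0.20 in BRCA1+ cells and PARVG by 0.74 ± 0.17 in BRCA1-null cells, while FERMT1, which encodes the epithelial kindlin, changed by -0.62 ± 0.11 in BRCA1+ cells.

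Of 18 basement membrane components and laminin partners, 5 were higher and 7 lower in BRCA1-null cells in DMSO, with a median of -0.04. That is 66.7%, where 42.2% of all tested genes were called. COL17A1 (2.92 ± 0.52), the collagen of hemidesmosomes, was higher and the laminin-linking proteins NID2 (-2.67 ± 0.34) and FBLN1 (-2.03 ± 0.19) were lower. With entinostat 6 were higher and 1 lower in BRCA1+ cells (38.9%, against 14.1% of all tested genes). In BRCA1-null cells 5 were higher and 0 lower (27.8%, against 10.8% of all tested genes). The largest of these were NTN4 (1.24 ± 0.17), a laminin-related netrin, and the syndecan SDC4 (0.70 ± 0.11) in BRCA1+ cells and the syndecan SDC1 (0.89 ± 0.11) in BRCA1-null cells. Of 16 tested genes of 23 for integrin ligands other than laminins, 4 were higher and 7 lower in BRCA1-null cells in DMSO. That is 68.8%, against 42.2% of all tested genes, and the median was -0.02. SPP1 (2.91 ± 1.02), which encodes osteopontin and had mean levels of only 0.0795 CPM in BRCA1+ and 0.665 CPM in BRCA1-null control, and TGFBI (2.03 ± 0.25) were higher and NPNT (-2.12 ± 0.17), the α8β1 ligand nephronectin, was lower. With entinostat 4 of the 16 were called higher in the BRCA1+ line, where 14.1% of all tested genes were called (8.13% higher). In the BRCA1-null line 3 (18.8%) were called higher, against 10.8% of all tested genes called (7.57% higher). None of the 16 was called lower in either line. Among those called in BRCA1+ cells were ICAM1 (0.69 ± 0.11), the ligand of β2 integrins, CDH1 (0.64 ± 0.12), the ligand of αEβ7, and TNC (0.50 ± 0.13).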

How the data were processed

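Raw read counts per gene were deposited by the authors as a single table, with hg19 positions and gene lengths. The authors used TopHat 2 for alignment of the poly(A) RNA-seq reads (hg19) and NGSUtils for counting, and the strand setting is not given in the sources used here. Groups came from the sample labels, and all 8 libraries were used. The 1 row without a gene name held 0 counts and was left out. Counts were filtered with filterByExpr, scaled by TMM and fitted with edgeR 4.0.16 in R 4.3.3 (quasi-likelihood, legacy set to FALSE, 1 mean per group, 4 residual degrees of freedom), and tests were two-sided. SE is the absolute log2 fold change divided by the square root of F. The scripts were tested on simulated data. CPM per kb used the deposited gene lengths. Alternatives were other size factors, filters and tests (DESeq2 1.42.0, edgeR likelihood ratio), the replicate block, only the groups compared, a fold threshold, and the omission of each library.

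The members, the gene lists and the markers were chosen with earlier results of these data known. All members described are accounted for, and 1 gene that matched the rule is not reported here. Every library is given for members called in at least 1 of the 4 comparisons with log2 fold change 1 or more in size, and fold change with SE for other called members. Of each other list, the 3 called genes with the largest line difference in DMSO and the 3 with the largest entinostat effect are named. Leaving out both libraries with counts along ITGAM to ITGAD was chosen after seeing the data, as were the overlapping and neighbouring genes named.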

Additional observations from a re-analysis of the deposited data

Results flagged for a closer look

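ITGAL was flagged because its libraries moved in opposite directions with entinostat in the 2 lines without overlap. BRCA1+ cells had 0.475 and 0.566 CPM under vehicle and 0.631 and 0.625 CPM under entinostat, but BRCA1-null cells had 0.879 and 1.44 CPM under vehicle and 0.533 and 0.407 CPM under entinostat. The difference between the responses was tested as an interaction in edgeR's quasi-likelihood test and was -1.57 ± 0.53 on the log2 scale (adjusted p = 0.967), so it was not called. ITGAL had 17 to 78 counts per library.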

How the results depend on the processing

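Of 64 member results called in the 4 comparisons, 42 kept their direction and call under all alternatives run other than the fold threshold, 28 of them also passed that threshold, and 0 results reversed. An added threshold of 1 on the size of the log2 fold change left 2 members (516 genes) with entinostat in BRCA1+ cells, 4 members (532 genes) in BRCA1-null cells, and 2204 and 1864 genes between the lines in DMSO and in entinostat. The DESeq2 Wald test did not call the DMSO line differences of ITGAL, ITGA2B and LAMA2 (adjusted p = 0.0734 to 0.0999). It also did not call the entinostat changes of ITGAL and ITGA4 in BRCA1-null cells (adjusted p = 0.139 and 0.229). The ITGAX change there was not called with upper-quartile factors, without the filter or with the legacy estimate. Fitting only the groups compared left 6 members and 693 genes called with entinostat in BRCA1-null cells. Without both libraries that carried counts along ITGAM to ITGAD, that comparison had 6 members and 999 genes, BRCA1+ entinostat had 960 genes and the lines in DMSO had 4859 genes. Leaving out 1 library each gave 4 to 11 members and 512 to 1597 genes in BRCA1-null cells, 676 to 2413 genes with entinostat in BRCA1+ cells, and 4527 to 6918 genes between the lines in entinostat. Fewer samples enter these fits, and a group from which a library was left out holds 1 library. The interaction called 18 genes with the edgeR likelihood ratio test, 11 with DESeq2 and 1 with the replicate block.

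Replicate numbers were shared by the groups, but the labels give no shared culture or batch, and deviations of same-numbered libraries correlated at r = 0.0523 to 0.287, so the numbers were not treated as pairing. With the replicate block 25 and 21 members were called between the lines in DMSO and in entinostat, with 8956 and 8398 genes in all. For entinostat in BRCA1+ and BRCA1-null cells it called 12 and 16 members, with 4314 and 3640 genes in all. With 2 libraries per group and members such as ITGA2B, ITGA4, ITGAL and ITGB7 at under 3 CPM, small differences of these genes were not detectable at this depth.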
